A study of Mus musculus with 8 samples.

Results

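The genes described here are the ligands and receptors of fibroblast growth factor (FGF) signalling and the inhibitors, phosphatases and transcription factors that report and restrain its ERK kinase branch. They were chosen by name: every non-control probe named for a numbered Fgf, Fgfr1 to Fgfr4, a Sprouty (Spry) or Spred gene, a dual-specificity phosphatase (Dusp), or for Fgfbp1, Etv1, Etv4, Etv5 or Phlda1. This gave 104 of 41174 probes and 58 of 27672 genes. In all, 47 of the 58 were tested, of 17191 genes tested, since a test needed a probe that stood well above background in 1 of the channels on 3 or more of the 4 arrays.

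RNA came from R1, an established line of mouse embryonic stem cells, grown on gelatin in a medium with serum replacer. One group of 4 samples was kept for 15 passages without leukaemia inhibitory factor (LIF) but with 0.2 mM sodium butyrate, a fatty acid salt known to inhibit histone deacetylases. The other group of 4 samples was kept in LIF, a cytokine that maintains self-renewal in these cells, with no feeders. No group had neither LIF nor butyrate, so the loss of the cytokine and the addition of butyrate cannot be told apart. Each of 4 two-colour Agilent whole mouse genome arrays carried 1 butyrate sample (Cy5) beside its same-numbered LIF sample (Cy3). With no array dyed the other way round, treatment cannot be told apart from dye. The labels call the 4 replicates independent and say no more about them, so the p-values cover only the variation among these samples, some of which may be technical.

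FGFs bind receptor tyrosine kinases on the cell surface, which pass the signal through Ras and Raf to the kinases MEK and ERK. ERK then induces genes that shut the pathway down again: Sprouty and Spred proteins act at Ras and Raf, and several dual-specificity phosphatases remove the activating phosphates from ERK and its relatives p38 and JNK. In mouse embryonic stem cells FGF and ERK signalling prepares the cells to leave the naive state, and Fgf5 is the classical marker of the epiblast state they enter next.

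Of the 47 tested genes, 42 differed between butyrate and LIF (limma, Benjamini-Hochberg adjusted p under 0.05), 23 higher in butyrate and 19 lower. Among all tested genes 75% passed the same test, 41.7% higher and 33.3% lower, so a call alone set few genes apart. The size of the changes was larger than in the background: 24 members passed at 1.5-fold or more, 14 higher and 10 lower, beside 20.3% of all genes (12.9% higher and 7.41% lower). At 2-fold or more 14 members passed, 9 higher and 5 lower, beside 6.94% of all genes (4.97% higher and 1.97% lower). The median size of the log2 ratio, regardless of sign, was 0.60 over the members and 0.25 over all tested genes. The signed median was near 0 in both, at 0.05 over the members and 0.03 over all genes. In 40 members the butyrate and LIF samples did not overlap, beside 68% of all genes. Of the 47 members 5 (Fgf9, Fgf21, Fgf22, Spred3 and Dusp18) passed the filter on dim probes through 1 group only, and a gene dim in 1 group alone enters the test already different. With both channels well above background on all 4 arrays, 42 members were tested and 39 passed, 21 higher and 18 lower.

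After loess the directions differed between the roles. Beside the counts that follow, 75% of all tested genes passed, 41.7% higher and 33.3% lower. All 9 tested MAP kinase phosphatases passed, 8 higher in butyrate and 1 lower. Of the 6 tested Sprouty and Spred genes, 1 was higher and 4 were lower, and of the 3 ETS factors all were lower. The ligands were split, with 5 higher and 5 lower of 12, and among the receptors and the binding protein Fgfbp1 1 was higher and 3 were lower of 5. Under median centring, in which each array is centred on its median in place of loess, several lower calls did not hold. Those of Spry1, Spred1, Etv4 and Fgf15 turned positive. Those of Spry2, Etv5, Fgfr2, Fgfr4, Fgfbp1 and Dusp7 were lost. As the cultures were measured in bulk, fewer cells of a type and less RNA per cell cannot be told apart in any of these values.

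**Figure D1:**
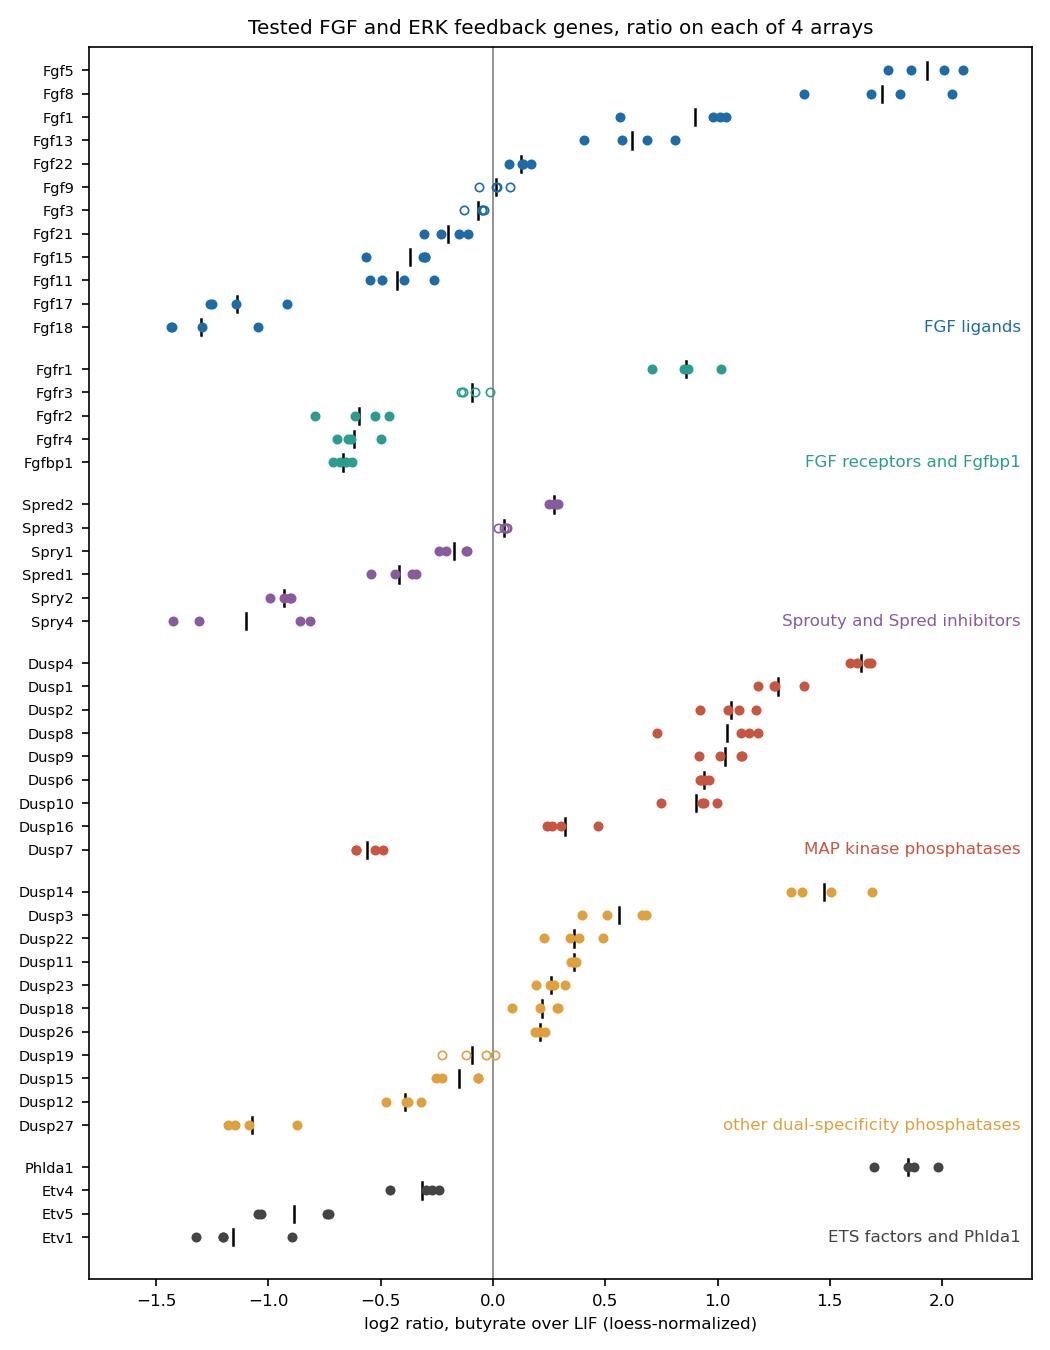
Log2 ratio of butyrate over LIF after loess normalization (x axis) for the 47 tested members (y axis), grouped by role, with 1 point per array and a bar at the mean of the 4 arrays; filled points are genes that passed the test, open points genes that did not. The MAP kinase phosphatases lie to the right of 0 except Dusp7, while Spry2, Spry4, Etv5 and Etv1 lie to its left.

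The promoters of 5 of these genes, picked by hand, are shown to set genes of both directions side by side. Fgf5, Dusp1 and Dusp8 were higher in butyrate, and Fgf18 and Spry2 were lower. Each is the 250 bases before the gene's start in RefSeq, build GRCm38.p6, on the gene's own strand. Capitals mark matches on either strand to a GC box (GGGCGGG, bound by the Sp family), a cyclic AMP response element (TGACGTCA) or an ETS element (CCGGAAG). Fgf5 lies at chr5:98253934-98254183 (plus strand), Dusp1 at chr17:26508473-26508722 (minus strand), Dusp8 at chr7:142095285-142095534 (minus strand), Fgf18 at chr11:33147401-33147650 (minus strand) and Spry2 at chr14:105896820-105897069 (minus strand).
Fgf5: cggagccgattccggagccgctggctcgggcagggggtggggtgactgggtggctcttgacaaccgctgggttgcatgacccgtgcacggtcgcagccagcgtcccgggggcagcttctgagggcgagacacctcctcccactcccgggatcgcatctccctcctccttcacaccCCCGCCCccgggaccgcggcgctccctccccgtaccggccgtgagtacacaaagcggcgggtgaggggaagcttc
Dusp1: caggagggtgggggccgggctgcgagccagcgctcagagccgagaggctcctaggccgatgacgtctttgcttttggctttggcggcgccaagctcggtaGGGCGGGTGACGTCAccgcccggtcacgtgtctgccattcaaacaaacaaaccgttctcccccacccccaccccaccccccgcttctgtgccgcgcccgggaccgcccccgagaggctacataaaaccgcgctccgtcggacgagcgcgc
Dusp8: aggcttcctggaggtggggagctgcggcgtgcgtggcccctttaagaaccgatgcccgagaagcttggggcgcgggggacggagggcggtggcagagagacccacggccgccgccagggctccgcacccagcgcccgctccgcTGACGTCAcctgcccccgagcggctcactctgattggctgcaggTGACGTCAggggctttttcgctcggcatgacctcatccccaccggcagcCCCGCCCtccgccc
Fgf18: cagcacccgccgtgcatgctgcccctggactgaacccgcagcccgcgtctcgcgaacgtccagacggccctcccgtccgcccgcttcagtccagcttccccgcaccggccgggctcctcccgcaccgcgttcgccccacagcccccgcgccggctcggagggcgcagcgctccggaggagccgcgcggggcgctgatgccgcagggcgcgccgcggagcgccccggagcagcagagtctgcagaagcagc
Spry2: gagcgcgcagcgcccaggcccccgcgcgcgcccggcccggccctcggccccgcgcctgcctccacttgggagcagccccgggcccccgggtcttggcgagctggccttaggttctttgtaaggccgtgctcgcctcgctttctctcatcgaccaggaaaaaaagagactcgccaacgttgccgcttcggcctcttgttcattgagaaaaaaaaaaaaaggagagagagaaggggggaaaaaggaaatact
In Dusp1 the GC box and the cyclic AMP response element adjoin, and Dusp8 holds 2 such elements. Fgf5, Dusp1 and Dusp8 each hold a GC box, and Fgf18 and Spry2 hold no motif, but the members did not split this way. Dusp6, Dusp10, Dusp11, Dusp14, Dusp22 and Spred2 were higher without a GC box, and Fgf21, Fgfr4 and Spry1 were lower with one. Of the 58 members 42 had a promoter entry. The GC box was found in 10 of 16 genes that were higher (62.5%), in 3 of 14 that were lower (21.4%) in 5 of 12 that did not pass or were not tested (41.7%), and in 25.7% of the 27025 genes with an entry. The cyclic AMP response element was found in 2 of the 16 and none of the 14, beside 1.77% of all genes. Those 2 are Dusp1 and Dusp8, both among the promoters picked for printing. The ETS element was found in none of the 16 and 1 of the 14, Dusp27, beside 7.83%. The median content of G and C was 65.0% in the genes that were higher, 61.0% in those that were lower and 52.4% in all, so the windows differ in base composition too. A match is only a match of letters, and these shares were not tested.

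Levels below are log2 normalized signals, given per sample in the order of replicates 1 to 4. Each ratio is the mean log2 ratio of butyrate over LIF ± SD over 4 arrays, with limma's adjusted p. Levels of different probes have no common scale and are compared only between samples.

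The largest change among the ligands was in Fgf5. It had a level of 10.80, 10.93, 10.88 and 10.77 in butyrate, against 8.79, 9.17, 8.79 and 8.90 in LIF. All 4 butyrate samples were above all 4 LIF samples, and the ratio was 1.93 ± 0.15, or 3.81-fold (adjusted p = 7.08e-08). Its promoter is printed above, and whether a motif bears on its level was not tested. Fgf8, an FGF of the gastrulating embryo, had a level of 9.96, 9.95, 10.12 and 10.04 in butyrate, against 8.15, 8.56, 8.08 and 8.36 in LIF. Its ratio was 1.73 ± 0.28 (adjusted p = 1.08e-06), again with no overlap, but its second probe gave 0.49 ± 0.23. Fgf1, the ligand that binds every FGF receptor, was also higher, with a ratio of 0.90 ± 0.22. It was dim, and the scanner software's own ratio, which has no offset, gave 1.66.

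Fgf17 and Fgf18, which belong with Fgf8 to 1 ligand subfamily, went the other way. Fgf17 had a level of 7.29, 7.35, 7.27 and 7.28 in butyrate, against 8.54, 8.27, 8.53 and 8.42 in LIF. Fgf18 had a level of 8.69, 8.54, 8.50 and 8.33 in butyrate, against 9.98, 9.59, 9.92 and 9.76 in LIF. No butyrate sample reached the lowest LIF sample for either gene. The Fgf18 promoter is printed above. The ratios were -1.14 ± 0.16 for Fgf17 (adjusted p = 9.72e-07) and -1.30 ± 0.18 for Fgf18 (adjusted p = 8.28e-07). Within this subfamily 1 ligand was therefore 3.32-fold higher while the others were 2.21-fold and 2.46-fold lower. The scanner software's ratio for the dimmer Fgf17 was -1.81.

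Smaller differences were found for the remaining ligands. Fgf15, the mouse counterpart of the bile acid hormone FGF19, had a ratio of -0.37 ± 0.13, which turned to 0.19 under median centring, in which each array is centred on its median in place of loess. Fgf13 and Fgf11 are FGF homologous factors, which stay inside the cell and bind sodium channels in place of signalling through the receptors. Fgf13 had a ratio of 0.62 ± 0.17, and its other probes, well above background in no LIF sample, gave 0.12 and 0.25. Fgf11 had a ratio of -0.43 ± 0.13, and its second probe, at -0.04, did not pass. Fgf22 was not well above background in any LIF sample and was 1.09-fold higher in butyrate (adjusted p = 0.0112), with overlapping groups. It was tested only because of its butyrate signal, and its call was lost under median centring (0.02) and without replicate 3 (0.12, limma, adjusted p = 0.0521). Fgf21, a metabolic hormone, was not well above background in any butyrate sample and was 1.15-fold lower there (adjusted p = 0.00287). It was tested only because of its LIF signal. Fgf9 and Fgf3 did not pass, at 0.01 ± 0.06 and -0.07 ± 0.04. In these dim genes the scanner software's ratio was larger, at 0.88 for Fgf22, -1.64 for Fgf21, -1.25 for Fgf11 and -0.74 for Fgf3, which then passed (limma, adjusted p = 0.000131). The remaining 9 ligand genes, Fgf2, Fgf6, Fgf7, Fgf10, Fgf12, Fgf14, Fgf16, Fgf20 and Fgf23, were too dim to be tested. Of these only Fgf10 was well above background on any array, in 2 of the LIF samples.

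Among the receptors, Fgfr1, the main FGF receptor of embryonic stem cells, was higher in butyrate. Its level was 9.12, 9.20, 9.29 and 9.29 in butyrate, against 8.41, 8.35, 8.27 and 8.42 in LIF, with no overlap. The ratio was 0.86 ± 0.13 (adjusted p = 1.90e-06), and its 3 other probes, at 0.87, 0.51 and 0.43, also passed. Fgfr1 lies on chromosome 8, whose 764 tested genes had a median ratio of 0.29. With each array's own median for that chromosome taken off, its ratio was 0.58.

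Fgfr2, a receptor known from trophoblast and primitive endoderm, had a level of 8.12, 8.08, 8.13 and 8.04 in butyrate, against 8.64, 8.54, 8.74 and 8.83 in LIF. Its ratio was -0.60 ± 0.14 (adjusted p = 2.38e-05), and its second probe gave -0.19. Fgfr4 had a level of 7.64, 7.72, 7.64 and 7.68 in butyrate, against 8.28, 8.22, 8.27 and 8.38 in LIF, a ratio of -0.62 ± 0.08 (adjusted p = 4.02e-06). Its 2 other probes, at -0.14 and -0.20, ran the same way and were closer to 0. Fgfr3 did not pass at -0.09 ± 0.06 (adjusted p = 0.0535), while its second probe, at -0.16, did. Fgfbp1, a secreted protein that releases FGFs from the matrix, had a ratio of -0.67 ± 0.04, and its butyrate samples, at 8.65 to 8.72, lay below its LIF samples, at 9.33 to 9.39. Under median centring the lower calls of Fgfr2, Fgfr4 and Fgfbp1 were lost, at -0.09, -0.16 and -0.11.

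Of the Sprouty genes, Spry2 had the steadiest difference. Its level was 10.23, 10.28, 10.26 and 10.18 in butyrate, against 11.16, 11.18, 11.16 and 11.17 in LIF. The ratio was -0.93 ± 0.04 (adjusted p = 1.98e-07), far larger than the spread within either group. A second Spry2 probe gave -0.27 ± 0.12, and under median centring the brighter probe no longer passed, at -0.34. Spry4 had a level of 7.87, 7.99, 7.76 and 7.66 in butyrate, against 8.73, 8.80, 9.07 and 9.08 in LIF. Its arrays fell into pairs, at -0.86 and -0.81 on arrays 1 and 2 and at -1.31 and -1.42 on arrays 3 and 4, with a mean of -1.10 ± 0.31 (adjusted p = 2.45e-05). Its second probe, well above background in no butyrate sample, gave -0.22 ± 0.12.

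Spry1 changed little, with a ratio of -0.17 ± 0.06, and it turned to 0.42 under median centring. Spred1, which brings neurofibromin to Ras and so promotes its inactivation, had a ratio of -0.42 ± 0.09, and both of its other probes ran the same way. It turned to 0.15 under median centring. Spred2 was the one inhibitor called higher, at 0.27 ± 0.02, close to the median of 0.21 on its chromosome, 11. With that median taken off, it did not pass, at 0.07. Its second probe, at 0.14, did not pass. Spred3 did not pass at 0.05 ± 0.02, and Spry3 was too dim to be tested.

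The MAP kinase phosphatases were higher in butyrate with 1 exception. Their median log2 ratio was 1.03, 7 of 9 were at least 1.5-fold higher and 5 at least 2-fold higher, beside 12.9% and 4.97% of all genes. Dusp4, a nuclear phosphatase that ERK induces, had a level of 11.64, 11.67, 11.61 and 11.58 in butyrate, against 9.96, 10.08, 9.94 and 9.96 in LIF. The ratio was 1.64 ± 0.04, or 3.12-fold (adjusted p = 2.11e-08), and its second probe gave 1.01 ± 0.03. Like Fgfr1 it lies on chromosome 8, and its ratio was 1.36 with the same medians taken off. Dusp6, the cytoplasmic phosphatase specific for ERK, had a level of 13.85, 13.88, 13.87 and 13.94 in butyrate, against 12.89, 12.96, 12.95 and 13.00 in LIF. This is a ratio of 0.94 ± 0.02 (adjusted p = 1.47e-07), nearly the same on every array.

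The nuclear phosphatases Dusp1 and Dusp2, immediate-early genes, were higher as well. Dusp1 had a level of 11.81, 11.82, 11.80 and 11.85 in butyrate, against 10.55, 10.57, 10.62 and 10.47 in LIF, and a ratio of 1.27 ± 0.09. Its promoter is printed above. Dusp2 had a ratio of 1.06 ± 0.10, with levels of 9.90 to 9.97 in butyrate and 8.74 to 8.98 in LIF. The phosphatases that act mainly on JNK and p38 moved the same way: Dusp8 by 1.04 ± 0.21 (1.81 with the scanner software's ratio), Dusp10 by 0.90 ± 0.11 and Dusp16 by 0.32 ± 0.10. A further Dusp8 probe, which the file lists under a clone name and which is not counted among the members, gave 1.45 ± 0.25. Dusp9, an ERK phosphatase abundant in embryonic stem cells, had a ratio of 1.03 ± 0.09, but its second probe, at 0.20 ± 0.28, did not pass (adjusted p = 0.082 when that probe stands for the gene). Dusp7, a close relative of Dusp6 in the cytoplasm, was the exception. Its level was 8.70, 8.62, 8.83 and 8.68 in butyrate, against 9.31, 9.11, 9.44 and 9.20 in LIF, a ratio of -0.56 ± 0.06 (adjusted p = 3.88e-06). Under median centring it was no longer called.

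**Figure D2:**
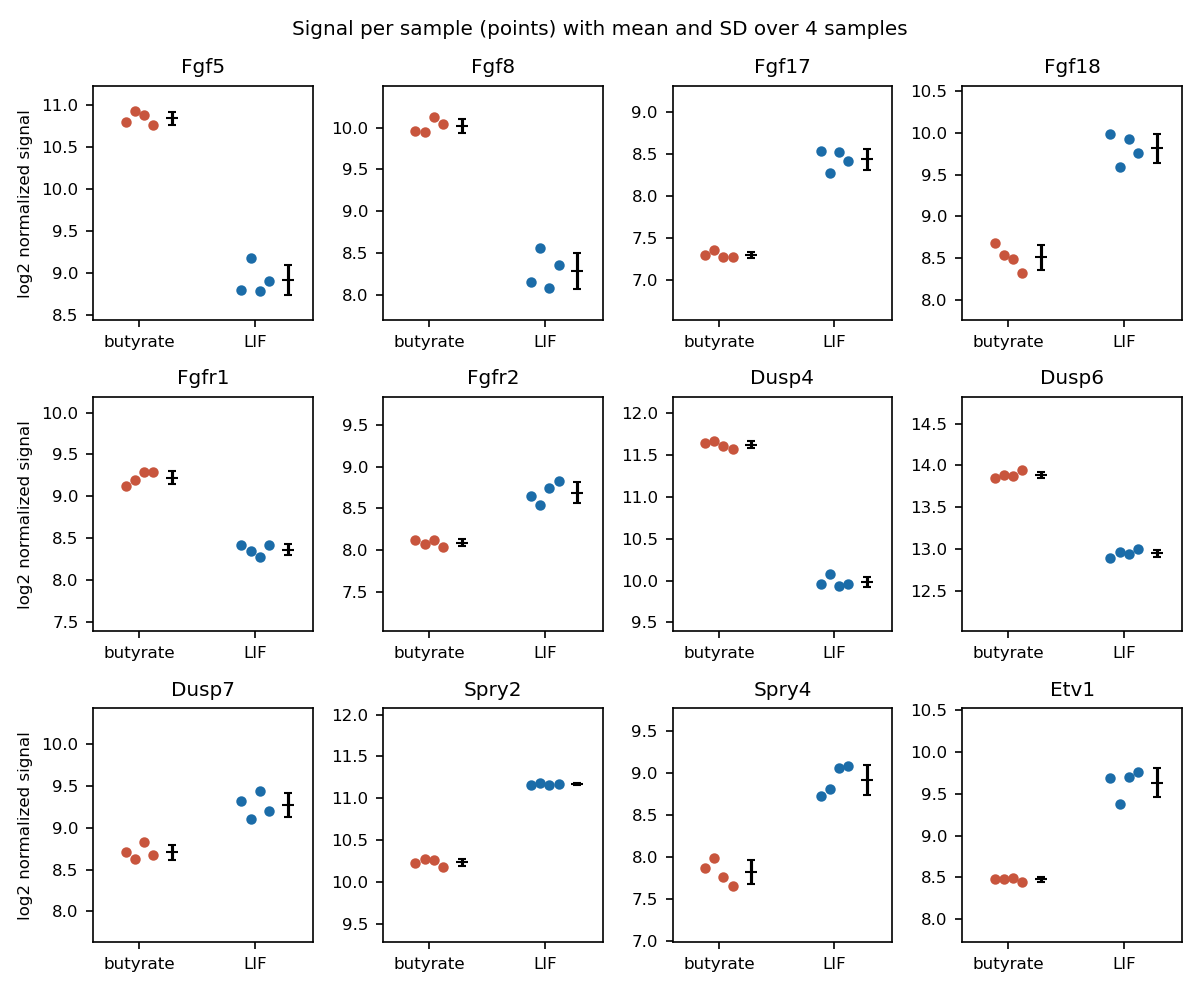
Log2 normalized signal (y axis) of 12 members in the 4 butyrate samples (red, left) and the 4 LIF samples (blue, right), with the mean and SD of each group beside the points; each panel spans the same number of log2 units. The groups do not overlap in any panel, with butyrate above LIF for Fgf5, Fgf8, Fgfr1, Dusp4 and Dusp6 and below it for Fgf17, Fgf18, Fgfr2, Dusp7, Spry2, Spry4 and Etv1.

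The other dual-specificity phosphatases, most of which are not known mainly as ERK phosphatases, showed smaller changes, with a median of 0.22. Of 11 tested, 7 were higher and 3 lower, beside 41.7% and 33.3% of all genes, and 2 passed at 2-fold or more, beside 6.94%. Dusp14 had a level of 10.56, 10.62, 10.63 and 10.55 in butyrate, against 9.05, 9.29, 9.26 and 8.86 in LIF. Its ratio was 1.47 ± 0.16 (adjusted p = 2.93e-07), and its second probe gave 1.46 ± 0.12. Dusp27, a relative known from zebrafish muscle, had a level of 8.75, 8.83, 8.85 and 8.72 in butyrate, against 9.92, 9.71, 9.94 and 9.87 in LIF. Both of its probes were lower, at -1.07 ± 0.14 and -0.87 ± 0.12. Dusp3, a small phosphatase of ERK and JNK, had a ratio of 0.56 ± 0.13. The other calls ran between -0.39 for Dusp12 and 0.36 for Dusp22 and Dusp11. Dusp15, at -0.15 ± 0.10, lost its call in 7 of its 16 alternatives, among them those without replicate 1 (-0.12) and without replicate 3 (-0.13). The calls of Dusp18 and Dusp26 were lost once the median of their chromosomes, 11 and 8, was taken off.

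Phlda1, a pleckstrin homology protein that ERK signalling induces, had a level of 12.29, 12.14, 12.05 and 12.20 in butyrate, against 10.41, 10.29, 10.36 and 10.21 in LIF. Its ratio was 1.85 ± 0.12, or 3.61-fold (adjusted p = 4.67e-08). The 3 ETS factors of the Pea3 family, which FGF signals induce in many embryonic tissues, were lower in butyrate. Etv1 had a level of 8.48, 8.48, 8.50 and 8.44 in butyrate, against 9.69, 9.37, 9.70 and 9.76 in LIF, with a ratio of -1.16 ± 0.18 (adjusted p = 1.59e-06). Etv5 had a level of 9.50, 9.58, 9.69 and 9.55 in butyrate, against 10.55, 10.31, 10.43 and 10.58 in LIF, with a ratio of -0.89 ± 0.18 (adjusted p = 5.65e-06), and its second probe gave -0.57. Etv4 had the smallest difference of the family, at -0.32 ± 0.10. Under median centring Etv5 lost its call at -0.29 and Etv4 turned to 0.27.

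In 22 members 2 or more probes were tested, 53 probes in all. In none of these genes did probes pass in opposite directions, but the sizes often differed. The probes gave nearly the same ratio for Dusp14 and Spred1, and ratios far apart for Fgf8, Dusp9, Spry2, Spry4 and Fgfr4. The other probes of Fgf8, Spry4 and Fgfr4 were dim, with group means of 6.28 to 7.16, where the offset understates a fold. Those of Dusp9 and Spry2 were brighter, at 11.28 and 8.60 in butyrate and 11.08 and 8.87 in LIF.

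**Figure D3:**
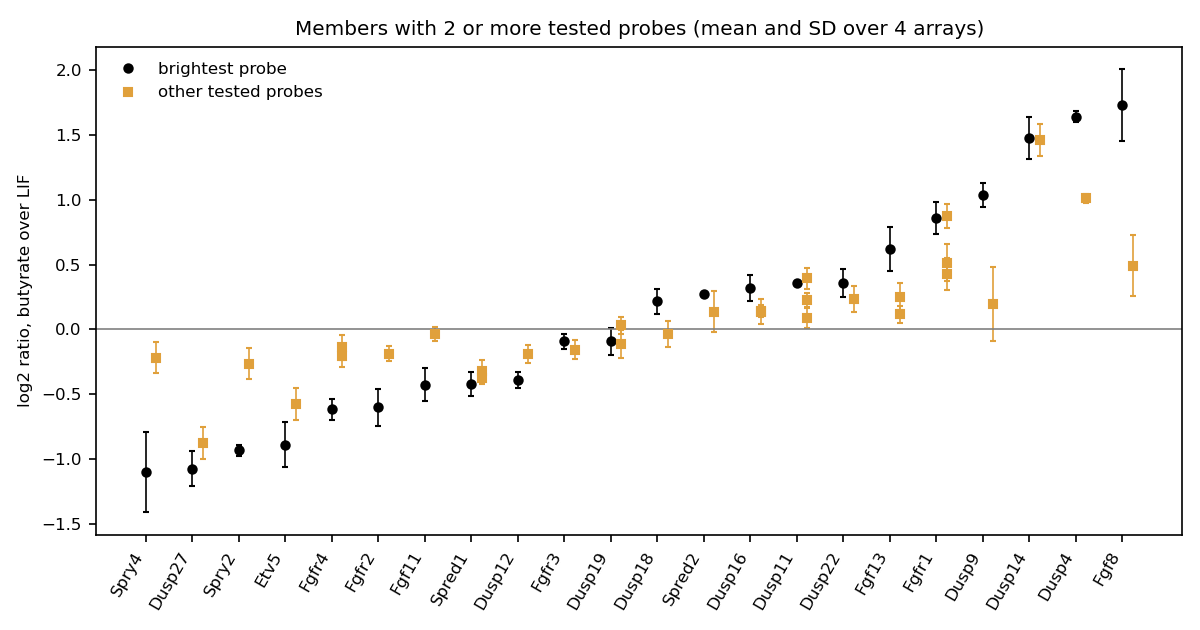
Mean log2 ratio of butyrate over LIF with its SD over 4 arrays (y axis) for the 22 members with 2 or more tested probes (x axis, ordered by the brightest probe); black circles are the brightest probe, orange squares the others. The probes of Fgf8 stand at 1.73 and 0.49 and those of Spry2 at -0.93 and -0.27, while those of Dusp14 stand at 1.47 and 1.46.

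How far each direction holds depends on where no change is set. Centring each array on its median, without loess, moved the median ratio of all tested genes to 0.41 and the share of calls that were higher to 92.4%, beside 55.6% after loess. Among the members 31 then passed, 24 higher and 7 lower. The members past 2-fold, 9 higher and 5 lower after loess, were then 14 higher and 0 lower, while both the scanner software's ratio and the authors' value table gave 10 higher and 10 lower. Directions were also taken relative to the median of all genes under loess, median centring, the scanner software's ratio and the authors' value table. Of the 42 members called after loess, 21 lay above and 18 below that median in all 4. The other 3, Fgf22, Spry1 and Dusp18, changed side. In these 4 scalings 8 MAP kinase phosphatases were always above and Dusp7 always below. Etv1, Etv4, Etv5, Spred1, Spry2 and Spry4 were always below. Taking off the median removes any uniform shift between scalings, so these positions cannot show where no change lies. The authors' value table had a correlation of at least 0.9996 with the scanner software's log2 processed signal. The last 2 scalings are therefore nearly the same.

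**Figure D4:**
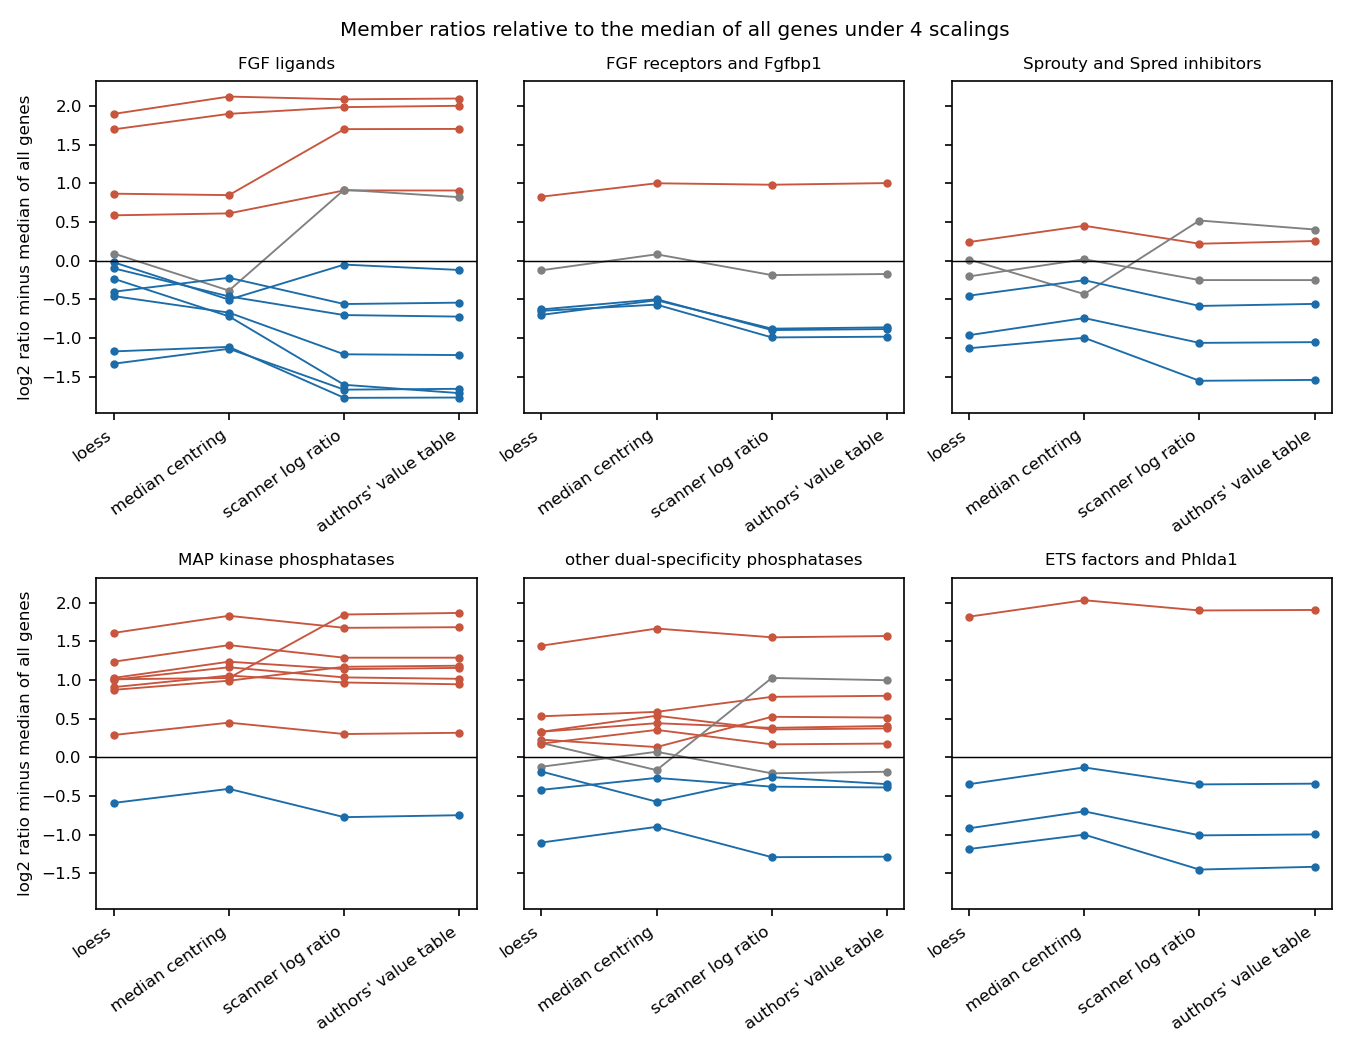
Log2 ratio of butyrate over LIF minus the median of all tested genes (y axis) under 4 scalings (x axis), with 1 line per tested member and 1 panel per role; red lines stay above 0 in all 4 scalings, blue lines below, and grey lines change side. In the panel of MAP kinase phosphatases 8 lines stay above 0 and 1, Dusp7, stays below.

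Array 2 gave smaller differences than the others. In 20 of the 24 members past 1.5-fold the ratio closest to 0 was that of array 2, and the same held for 56.7% of the 3485 genes of all kinds past that fold. Its part in the results was not tested. Without replicate 2, 42 members passed, 15 of them at 2-fold or more in place of 14. Of all genes 1301 then passed at 2-fold or more in place of 1193.

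The rest of the pathway was followed in 58 genes from the coreceptors and heparan sulfate enzymes to Ras, Raf, MEK, ERK and their targets, of which 51 were tested. In butyrate 29 were higher and 12 lower, beside 41.7% and 33.3% of all genes. By 1.5-fold or more 12 were higher and 2 lower, beside 12.9% and 7.41% of all genes. The 41 calls are 80.4% of the 51, near the 75% of all genes, and the median ratio was 0.18. The 4 largest differences were in Errfi1, an inhibitor of the EGF receptor family (1.73 ± 0.03), Ndst1, which sulfates heparan sulfate (1.33 ± 0.14), Ier3, an immediate-early gene (1.31 ± 0.11), and Flrt3, a membrane protein that binds FGF receptors (1.26 ± 0.15). Ptpn11, the phosphatase that carries the receptor signal to Ras, and its docking partner Frs2 were higher by 1.17 ± 0.07 and 0.99 ± 0.06. Among the other immediate-early genes Fos, Fosl1 and Egr2 were higher, at 1.02 ± 0.20, 0.64 ± 0.17 and 0.18 ± 0.07, Egr1 was lower, at -0.25 ± 0.08, and Ier2 did not pass at -0.07 ± 0.05. Ptpn11, Frs2 and these genes were picked out of the list for their roles, after their values were seen.

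Genes of other cell types differed between the groups along with these changes. Pou5f1, Sox2 and Nanog, which define pluripotent cells, were well above background in all 8 samples, with ratios of -1.58 ± 0.22, -1.24 ± 0.09 and 0.23 ± 0.05. Of 9 pluripotency genes 2 were higher and 7 lower, and of 8 primed epiblast genes 5 were higher and 2 lower. All 11 tested trophoblast genes were higher, with a summed signal of 132184 to 135418 in butyrate and 33084 to 37622 in LIF. Krt8 and Krt18 were saturated in all 4 butyrate samples, which clips the sum there. No other trophoblast gene was saturated, so these keratins weigh heavily in the sum. Such sums add signals of probes with no common scale and serve only to compare samples. Cdx2 had a ratio of 2.77 ± 0.45. Of 11 tested fibroblast genes 9 were higher and 2 lower, with a summed signal of 24887 to 26079 in butyrate and 7498 to 8063 in LIF. Of 11 tested endoderm genes 10 were higher, with 17286 to 18488 in butyrate and 5218 to 5412 in LIF. Among all tested genes 41.7% were higher and 33.3% lower. By 1.5-fold or more 8 trophoblast, 6 fibroblast and 6 endoderm genes were higher and none lower, beside 12.9% and 7.41% of all genes. Elf5 (trophoblast), Afp (endoderm), Prrx1 and Dcn (both fibroblast) were well above background in no LIF sample. These genes were tested only because of their butyrate signal. Lum, Tpbpa and Ttr were too dim to be tested. Fgf5, Fgf8 and Fgfr1 are also used by the epiblast and early mesoderm, and Fgfr2 by trophoblast. The part of other cell types in the results was not tested.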

How the data were processed

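RNA of 4 butyrate and 4 LIF samples was measured on 4 two-colour arrays of 1 slide. Of 8 deposited scanner files 4 were distinct scans. The deposited files hold an intensity per spot and channel and, per the file headers, a log10 ratio of Cy5 over Cy3, background-subtracted and dye-normalized by the scanner software, Agilent Feature Extraction 9.1 per the submitters' processing notes. The authors' value table holds log2 values, with a median of 6.487 in every column. No tool is named for it in the sources used here. The median signal was 110 to 111.4 in butyrate (Cy5) and 62.8 to 66.0 in LIF (Cy3), with 62.7% to 63.9% and 57.9% to 61.2% of non-control spots well above background. The number of arrays limits the precision.

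With limma 3.58.1 in R 4.3.3, mean signals were background-corrected (normexp, offset 50, which understates the fold of dim genes) and normalized by loess within each array, with control spots at weight 0 and 14 outlier spots set to missing. Saturated spots were kept. Levels come from the channels after loess and Aquantile. Spots of a probe were averaged, and the brightest tested probe stood for a gene. Probes were named by accession (22951), symbol (6659), synonym (3109) or the name in the file (8455) with RefSeq's table for GRCm38.p6. The 4 log2 ratios were tested against 0 with lmFit and eBayes, with p-values adjusted over all 17191 genes. Where a group was nowhere well above background, a fold is only an estimate, open to dye bias. The steps were tested on simulated data. Plots used matplotlib 3.10.9 (Python 3.11.15).

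Same-numbered samples shared an array, so the within-array ratio is a fit with the replicate number as a block. Their deviations from the means of the groups had correlations over genes of 0.298, 0.158, 0.306 and 0.226, against -0.213 to 0.101 for other pairs. Deviations from a mean cancel within each group, so these pairs are not independent. Same-numbered samples also share spots and the loess fit, so the values cannot show a pairing beyond the shared array. Alternatives covered background, scaling, dim and saturated probes, the choice of probe, the variance model, the block, chromosome medians and each replicate left out.

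Genes named are Fgf5, Dusp4, all tested receptors, Sprouty and Spred genes, ETS factors and MAP kinase phosphatases, Phlda1, Fgfbp1, other members past 1.5-fold, and up to 4 of the largest changes in the pathway list. The rest were named after their values were seen. The members and lists were chosen with earlier results of these data known. Fgf4 is not analysed here, and some genes of the pathway list are not reported here.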

Additional observations from a re-analysis of the deposited data

Results flagged for a closer look

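In 14 of 141 sets of 4 values of the tested members, 1 sample or array stood far from the other 3 (Dixon's test). Chance alone would mark about 1 set in 20. The ratio and the levels of a gene come from the same spots, so its sets are not independent. No excess is therefore read from this count. Of the 14, 7 lie in replicate 2 or array 2. On array 2 the Fgf1 ratio was 0.566, against 0.982 to 1.04 on the others, and Fgf1 had a level of 7.83 in butyrate replicate 2 (7.93 in the other 3) and of 7.26 in LIF replicate 2 (6.90 to 6.94 in the others). The Dusp8 ratio on array 2 was 0.732, against 1.11 to 1.18. LIF replicate 2 stood apart for Fgf11 at 6.92 (others 7.17 to 7.21), for Dusp4 at 10.08 (others 9.94 to 9.96) and for Dusp22 at 8.11 (others 7.90 to 7.92).

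Dusp15 stood apart in replicate 3 in both channels, at 7.21 in butyrate (others 6.33 to 6.40) and 7.43 in LIF (others 6.44 to 6.59). The Fgf15 ratio on array 1 was -0.57, against -0.31 to -0.30, and the Fgf3 ratio on array 3 was -0.13, against -0.05 to -0.04. Fgf11 was at 6.82 in butyrate replicate 4 (others 6.65 to 6.67), Dusp9 at 13.76 in butyrate replicate 3 (others 13.62 to 13.64) and Spred2 at 9.24 in LIF replicate 4 (others 9.36 to 9.39).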

How the results depend on the processing

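The count of 42 members was 40 to 43 with 1 replicate left out (22 to 23 higher, 18 to 20 lower; all genes 11563 to 12803), and the signed median ran from 0.0432 to 0.0555. Without the replicate block 41 members passed, Dusp15 being lost, and the block changed no other member's call. Centring on the median left 7 members lower and a signed median of 0.42. Under it Etv4 turned to 0.27, Fgf15 to 0.19, Fgfr3 to 0.49, Spry1 to 0.42, Spred1 to 0.15, Dusp19 to 0.48 and Dusp12 to 0.14, and 9 others lost their call. The median, 0.0476 as reported, was 0.0871 with an offset of 16, 0.129 with the scanner software's ratio, 0.122 in the authors' value table, 0.00711 less the chromosome medians, 0.0856 with a strict and 0.00708 with no filter on dim probes, and 0.0115 with the second brightest probe. Dusp18 turned to -0.0365 with the strict filter and with the second brightest probe, and Dusp26 to -0.0749 less its chromosome's median. Genes past 2-fold, 1193 in all, were 2852 with median centring, 2989 with the scanner software's ratio and 2974 in the authors' table. The cause of these shifts was not tested. Members near background, such as Fgf22 and Fgf21, are limited by signal.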
